A study of Homo sapiens with 9 samples.

Results

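The clustered protocadherins were taken as every gene whose symbol begins with PCDHA, PCDHB, PCDHGA, PCDHGB, PCDHGC or PCDHAC followed by its member number, which gave 57 of the 27111 genes in the files. They comprised 15 alpha members (13 of the A subfamily and the C-type PCDHAC1 and PCDHAC2), 19 beta members, 3 of them pseudogenes, and 23 gamma members. PCDHGB8P, among the gamma members, is also a pseudogene. The RNA came from PC3 cells, an established human prostate cancer line, grown as multicellular tumor spheroids (MTSs). PC3 cells carried a stably integrated pSIN lentivirus that was empty (Empty) or expressed the murine long (NF-YAl) or short (NF-YAs) splice form of NF-YA, and all 3 lines had been selected with puromycin. Each line gave 3 libraries, lettered A, B and C for Empty and NF-YAs and A, B and D for NF-YAl, from MTSs pooled within a library. NF-YA is the regulatory subunit of the CCAAT-binding factor NF-Y, and the comparisons asked how each splice form changed gene expression against Empty and against the other form.

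Clustered protocadherins are cell-surface cadherins that bind the same isoform on a neighbouring cell, and neurons use different combinations of them to tell their own branches from those of other cells. In the alpha and gamma clusters each member has its own promoter and a large variable exon encoding the extracellular cadherin repeats, the membrane span and part of the cytoplasmic tail, which is spliced to constant exons common to the whole cluster. Beta members are single-exon genes with no constant exons. Most variable promoters carry a conserved sequence element with the core CGCT, near which the architectural factor CTCF binds, whereas C-type members are regulated differently from the others in neurons.

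These genes lie in a row on chromosome 5. In GENCODE annotation on GRCh37, the build of the files, the alpha members span chr5:140165721-140391932, the beta members chr5:140430959-140628933 and the gamma members chr5:140710081-140892544, with every member on the plus strand. The 3 alpha constant exons are 59, 89 and 2721 bases long and the 3 gamma constant exons 59, 89 and 2029 bases. A read from a constant exon cannot by itself be given to a member, and RSEM shares such reads by estimate. The variable exons were mostly distinguishable. Over windows of 50 bases, the share found in no other member had a median of 93.1% in alpha, 87.0% in beta and 94.9% in gamma. It was lowest for PCDHGB4, at 41.5%, with 47.4% of its windows also in PCDHGA8, and for PCDHB8, at 55.7%, with 32.4% also in PCDHB13. For each member the longest annotated exon outside the constant exons was taken. Those of PCDHGB4 (chr5:140767265-140771989) and PCDHGA8 (chr5:140769724-140776203) overlap on the chromosome. Their shared windows therefore include the same stretch of DNA and do not measure similarity between the 2 members. Among the members described most fully here, PCDHA1 to PCDHA5 were at 89.4% to 98.5% and PCDHGC5 and both alpha C-type members at 100%. The exons taken for PCDHA3, PCDHA4 and PCDHA5 had 4594, 10557 and 4248 bases, and their shorter deposited transcripts 2475, 2594 and 2451. Their shares thus also cover sequence outside those transcripts.

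Promoter sequences show the element that the promoters share and the few bases around it that differ between clusters. RefSeq sequences on GRCh38.p14, running from 250 bases before to 50 after the start of the gene, were matched for 47 of the 57 members. The stretches below have 60 bases on the plus strand, all before the start, with the CGCT core in capitals. They are shown for PCDHA1, PCDHA2, PCDHA4 and PCDHA5, which were called against Empty, for the highly expressed PCDHA12, PCDHB2 and the C-type PCDHAC1, which did not pass the test, and for PCDHGA3, a called gamma member. Of the called members, PCDHA3 and PCDHGC5 were not matched.
PCDHA1, chr5:140786078-140786137: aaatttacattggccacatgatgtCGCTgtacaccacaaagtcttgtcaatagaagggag
PCDHA2, chr5:140794773-140794832: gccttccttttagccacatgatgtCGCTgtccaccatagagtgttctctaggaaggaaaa
PCDHA4, chr5:140806971-140807030: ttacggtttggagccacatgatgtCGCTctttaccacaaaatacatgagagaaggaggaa
PCDHA5, chr5:140821534-140821593: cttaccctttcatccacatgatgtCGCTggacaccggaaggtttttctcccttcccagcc
PCDHA12, chr5:140875236-140875295: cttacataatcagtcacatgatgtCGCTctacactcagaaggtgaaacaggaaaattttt
PCDHAC1, chr5:140926212-140926271: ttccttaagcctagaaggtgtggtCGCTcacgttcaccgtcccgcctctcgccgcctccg
PCDHB2, chr5:141094536-141094595: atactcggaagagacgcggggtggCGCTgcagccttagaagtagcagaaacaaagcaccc
PCDHGA3, chr5:141343759-141343818: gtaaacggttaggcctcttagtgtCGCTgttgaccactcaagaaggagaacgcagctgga

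CGCT on the strand of the gene lay between 30 and 100 bases before the start in 12 of 13 alpha, 12 of 14 beta and 19 of 20 gamma members with a promoter sequence, against 25.3% of the 27305 genes in the promoter table. Longer versions of the element were chosen after the sequences had been seen. GATGTCGCT, counted on both strands, was in 9 of 13 alpha promoters and in 0.128% of all promoters. GGTGGCGCT was in 13 of 14 beta promoters against 0.619% of all, and CGCTGTT was in 13 of 20 gamma promoters against 2.73% of all. Each of these longer words contains or overlaps the CGCT core. CCAAT, the word NF-Y binds, was counted on both strands as CCAAT or ATTGG. It was in 3 alpha, 5 beta and 8 gamma promoters, which was 34.0% of the members against 39.7% of all promoters. Of PCDHA1, PCDHA2, PCDHA4 and PCDHA5, only the window of PCDHA1 held it, once as CCAAT at position -176 from the start and once as ATTGG at position -54, just before the element in the stretch printed above. CCCTC, on either strand, was in 29.8% of the members' promoters and in 73.3% of all.

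Total expected counts were between 18076979 and 27163976 per library, and the members took 0.0452% to 0.0633% of them. CPM are counts per 1000000 of the TMM-scaled library total. NFYA itself, to which reads of the murine transgenes can align in part, had a CPM of 91.8 ± 4.24 (SD, n = 3) in Empty cells, 341 ± 49.3 in NF-YAl cells and 261 ± 5.71 in NF-YAs cells. Epithelial keratins were high in all lines. The 5 epithelial markers summed to between 1171 and 1294 CPM in Empty cells, 744 and 759 in NF-YAl cells and 728.9 and 832.7 in NF-YAs cells. Nearly all of this was KRT8, KRT18 and KRT19. The other markers were low and did not follow the sum. Mean CPM in Empty, NF-YAl and NF-YAs cells were 0.98, 4.42 and 2.71 for EPCAM and 6.58, 7.45 and 2.62 for CDH1. The 10 neuron markers summed to 124.5 to 138.8, 129.3 to 163.4 and 121 to 144.1 CPM, mostly from TUBB3, with means of 117.7, 120.7 and 94.8. Among the others, mean CPM in Empty, NF-YAl and NF-YAs cells were 1.31, 7.42 and 10.2 for MAP2, 7.97, 11.2 and 19.95 for SYT1 and 0.027, 0.47 and 0.097 for GAP43. They were 1.385, 1.7 and 2.12 for RBFOX3, 0.979, 2.06 and 1.525 for SYP and 0.227, 0.090 and 0.115 for ELAVL3. SNAP25, STMN2 and DCX were below 0.16 CPM everywhere. The 5 prostate lineage markers summed to 16.9 to 23.1, 36.5 to 61.1 and 27.2 to 32.3 CPM in the same order, with KLK3 listed at 0 and KLK2 below 0.13 CPM in every library. Fibroblast markers summed to 26.3 to 71.7 CPM in Empty cells, 77.0 to 262.5 in NF-YAl cells and 100.9 to 150.2 in NF-YAs cells, nearly all of it COL3A1, and the other 5 stayed below 1.71 CPM in every library. Their part in the results below was not tested. In such bulk RNA, fewer cells with a transcript and less of it per cell cannot be told apart.

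Clustered protocadherins of all 3 clusters were transcribed in PC3 MTSs. Levels of different genes are compared in TPM, which are corrected for length. In Empty the highest members were PCDHGB2 at 19.6 ± 2.03 TPM, PCDHB2 at 15.3 ± 1.39, PCDHGB5 at 12.7 ± 3.27, PCDHA12 at 10.5 ± 1.46 and PCDHAC1 at 8.88 ± 1.42 (SD, n = 3). The ranges of mean ± SD overlapped between each of PCDHB2, PCDHGB5 and PCDHA12 and the next in this order. PCDHB1 was at the other end, with expected counts of 1, 0 and 0 in Empty cells, 4, 9 and 15 in NF-YAl cells and 6, 3 and 3 in NF-YAs cells. It was the only member that did not pass the filter on low counts, so 56 members were among the 17108 genes tested.

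A member was called changed at an adjusted p under 0.01 and a log2 fold change above 1 in size, in the quasi-likelihood fit of edgeR, with p adjusted by Benjamini-Hochberg over all 17108 genes. In NF-YAl against Empty, 5 of 56 members were called higher, where 4.76% of all genes were, and 1 was called lower, where 3.50% of all genes were. In NF-YAs against Empty, 4 were called higher against 5.44% of all genes and 2 lower against 3.90%. From these counts the members as a whole were not read as differing from the background. All members called higher were in the alpha cluster and all called lower in the gamma cluster. No beta member was called by this fit in any comparison, with 5, 2 and 5 of 18 at an unadjusted p under 0.05 in NF-YAl against Empty, in NF-YAs against Empty and between the forms, where 42.2%, 45.0% and 36.5% of all genes were. DESeq2 called 1, PCDHB1, in NF-YAl. Libraries did not overlap between NF-YAl and Empty for 7 members that were higher and 6 that were lower, where 21.0% and 21.4% of all genes did so. Between NF-YAs and Empty this held for 9 and 11 members, with 29.2% and 27.1% of all genes. The median log2 fold change of the tested members was 0.19 in NF-YAl and -0.06 in NF-YAs, beside 0.01 and 0.00 over all genes. By cluster it was 0.64 and 0.35 for alpha, 0.24 and 0.06 for beta, and 0.07 and -0.12 for gamma. Both comparisons share the Empty libraries.

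**Figure D1:**
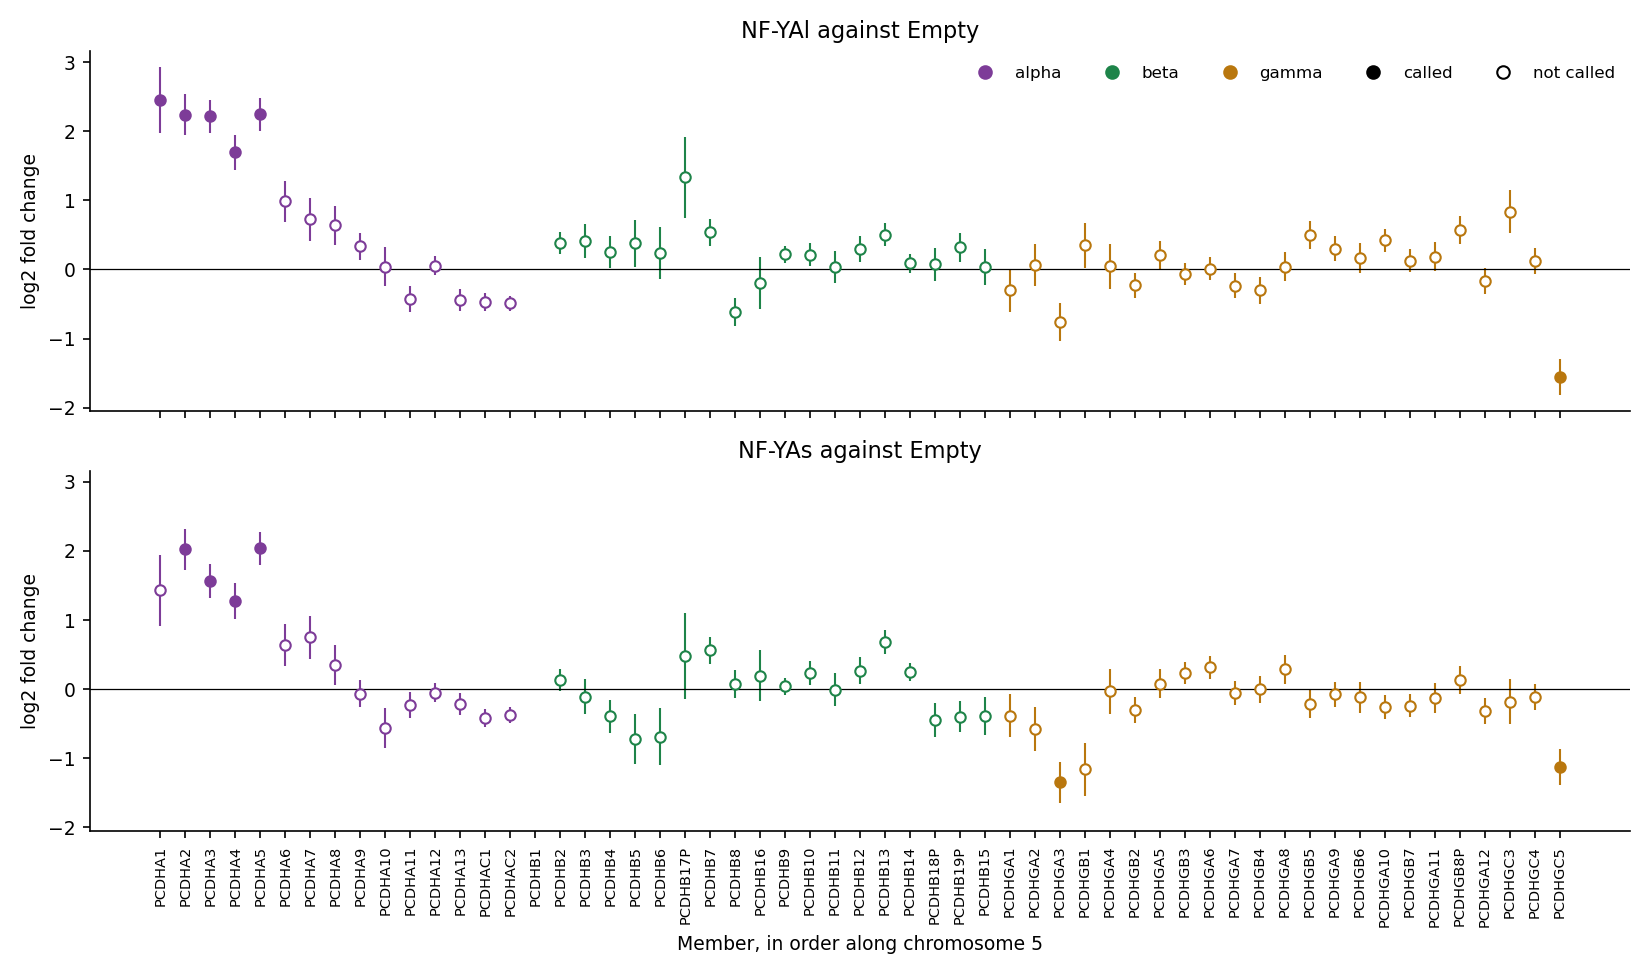
Log2 fold change (points) with its standard error (bars) for the 56 tested members in their order along chromosome 5, for NF-YAl against Empty (upper) and NF-YAs against Empty (lower). Filled points were called, and the called alpha members are the 5 at the start of the cluster in NF-YAl and 4 of those in NF-YAs.

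The alpha members that rose are those at the start of the cluster. PCDHA1 had 0.208, 0.555 and 0.104 CPM in Empty cells, 1.59, 1.10 and 2.20 in NF-YAl cells and 0.682, 0.669 and 1.06 in NF-YAs cells. Every library of both NF-YA lines was above every Empty library. PCDHA1 rose in NF-YAl (log2 fold change 2.45, SE 0.48, adjusted p = 0.0020), whereas in NF-YAs the change of 1.43 (SE 0.51, adjusted p = 0.047) was not called. Its expected counts in Empty were only 4.97, 13.96 and 2.63, and the call in NF-YAl was lost without Empty replicate A (adjusted p = 0.012) or without Empty replicate C (adjusted p = 0.012).

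PCDHA2 had 0.419, 0.716 and 0.804 CPM in Empty cells, 2.76, 3.81 and 2.58 in NF-YAl cells and 2.10, 2.74 and 3.04 in NF-YAs cells. PCDHA3 had 0.632, 1.001 and 0.827 CPM in Empty cells, 3.59, 4.40 and 3.46 in NF-YAl cells and 2.70, 2.29 and 2.32 in NF-YAs cells. In both genes the NF-YA libraries lay apart from Empty. PCDHA2 rose by a log2 fold change of 2.24 (SE 0.30, adjusted p = 0.00015) in NF-YAl and 2.02 (SE 0.30, adjusted p = 0.00028) in NF-YAs. PCDHA3 rose by 2.21 (SE 0.24, adjusted p = 3.8e-05) and 1.56 (SE 0.25, adjusted p = 0.00046).

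PCDHA4 had 1.71, 2.63 and 1.46 CPM in Empty cells, 6.47, 7.74 and 4.59 in NF-YAl cells and 4.65, 4.34 and 5.14 in NF-YAs cells. PCDHA5 had 1.22, 0.954 and 0.708 CPM in Empty cells, 4.74, 4.58 and 4.38 in NF-YAl cells and 3.29, 3.88 and 4.65 in NF-YAs cells. No NF-YA library of either gene overlapped Empty. PCDHA4 rose by a log2 fold change of 1.69 (SE 0.26, adjusted p = 0.00037) in NF-YAl and 1.28 (SE 0.26, adjusted p = 0.0023) in NF-YAs. The call in NF-YAs was lost without Empty replicate A, Empty replicate C or NF-YAs replicate C, at adjusted p between 0.012 and 0.014. PCDHA5 rose by 2.25 (SE 0.24, adjusted p = 3.2e-05) and 2.04 (SE 0.24, adjusted p = 5.5e-05).

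**Figure D2:**
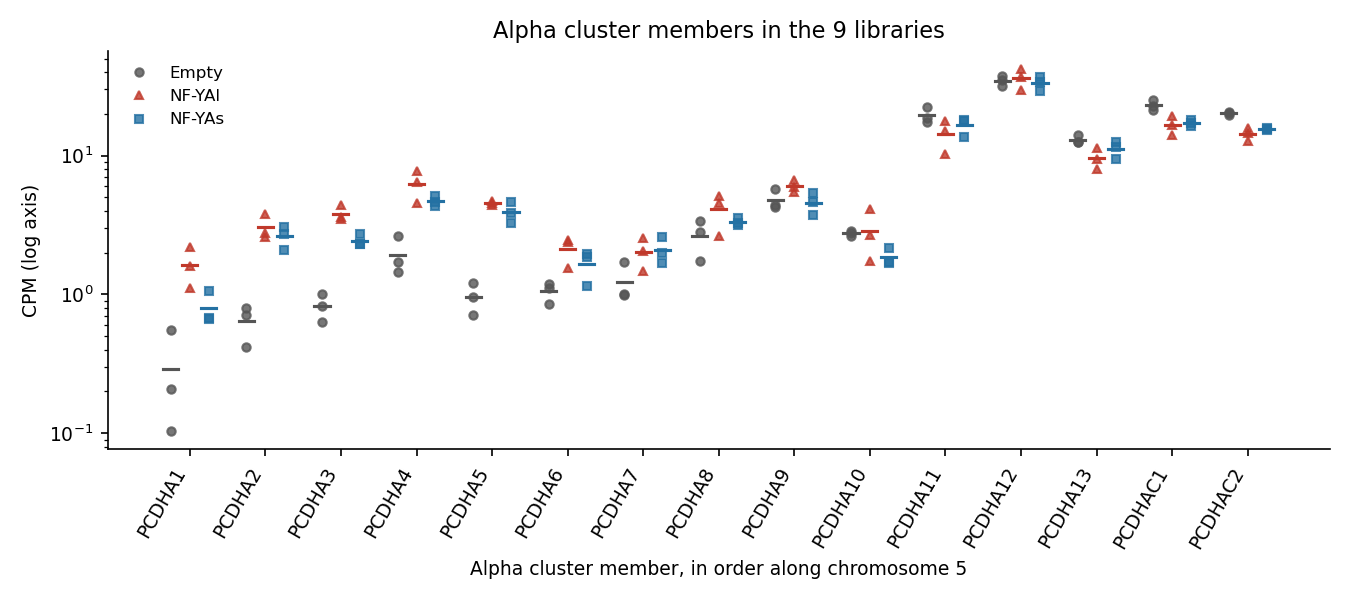
CPM (log axis) of the 15 alpha members in each of the 9 libraries, in order along chromosome 5, with the mean of each group as a short line. From PCDHA1 to PCDHA5 every NF-YA library lies above every Empty library, and from PCDHA11 onward the levels are higher and the groups lie close together or Empty lies above.

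Further along the cluster the differences were smaller. PCDHA6, PCDHA7 and PCDHA8 had NF-YAl log2 fold changes of 0.99, 0.72 and 0.64 and NF-YAs log2 fold changes of 0.64, 0.75 and 0.35, none of them called. PCDHA6 was called in NF-YAl without NF-YAl replicate D. From PCDHA9 to PCDHA13 the values ran from -0.44 to 0.33 in NF-YAl and from -0.56 to -0.05 in NF-YAs. The most expressed of these, PCDHA12, had 34.8, 37.5 and 31.7 CPM in Empty cells, 42.1, 36.5 and 29.5 in NF-YAl cells and 29.3, 36.8 and 34.1 in NF-YAs cells, so its groups overlapped. PCDHA11 had 17.5, 22.4 and 18.6 CPM in Empty cells, 10.3, 15.1 and 17.8 in NF-YAl cells and 13.7, 17.9 and 18.1 in NF-YAs cells.

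The C-type alpha members, at the end of the cluster, differed in the other direction without passing the fold limit. PCDHAC1 had 21.2, 25.1 and 22.8 CPM in Empty cells, 19.2, 16.5 and 14.05 in NF-YAl cells and 18.0, 17.3 and 16.4 in NF-YAs cells. PCDHAC2 had 20.1, 20.8 and 19.6 CPM in Empty cells, 14.5, 15.8 and 12.7 in NF-YAl cells and 15.4, 15.7 and 15.6 in NF-YAs cells. For both genes all Empty libraries were above all libraries of either NF-YA line. The log2 fold changes in NF-YAl were -0.48 (SE 0.13, adjusted p = 0.015) for PCDHAC1 and -0.49 (SE 0.11, adjusted p = 0.0060) for PCDHAC2. In NF-YAs they were -0.42 (SE 0.13, adjusted p = 0.025) and -0.37 (SE 0.11, adjusted p = 0.024).

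Summed over the cluster, the differences among alpha members were not visible. Cluster sums count a shared read once whichever member it was given to. They are given without a test. The alpha sum was 127 ± 10.3 CPM in Empty cells, 127 ± 11.6 in NF-YAl cells and 122 ± 9.75 in NF-YAs cells (SD, n = 3), and the libraries of the 3 groups overlapped. In expected counts the alpha sum was 2946, 3501 and 3040 in Empty cells, 2518, 3291 and 2775 in NF-YAl cells and 2056, 2577 and 2754 in NF-YAs cells. The sum of PCDHA1 to PCDHA5, a set chosen after their values had been seen, was 4.19, 5.86 and 3.90 CPM in Empty cells, 19.2, 21.6 and 17.2 in NF-YAl cells and 13.4, 13.9 and 16.2 in NF-YAs cells. The mean in NF-YAl was thus 4.16 times and in NF-YAs 3.12 times that in Empty. These 5 genes took 3.62% ± 0.517 of the alpha counts in Empty cells, 15.2% ± 0.867 in NF-YAl cells and 11.9% ± 0.975 in NF-YAs cells. PCDHAC1 and PCDHAC2 together took 33.9% ± 1.29, 24.2% ± 0.895 and 27.0% ± 2.72, and PCDHA6 to PCDHA13 62.4% ± 0.971, 60.6% ± 0.800 and 61.0% ± 2.98.

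How RSEM divided the counts of these genes among transcripts differed between libraries. For PCDHA3, nearly all counts were on the shorter of its transcripts, of 2475 bases, with 15.07, 25.19 and 21.02 in Empty cells, 67.76, 107.49 and 84.33 in NF-YAl cells and 50.19, 46.06 and 49.74 in NF-YAs cells. For PCDHA5, the shorter transcript, of 2451 bases, had 29, 24 and 18 counts in Empty cells, 42.77, 77.81 and 56.95 in NF-YAl cells and 61, 78 and 101 in NF-YAs cells. In both genes these shorter transcripts alone were higher in every NF-YA library than in every Empty library. For PCDHA1, 53.25 of the counts in NF-YAl replicate D were on the transcript of 5415 bases that holds the constant exons, while the 30 and 27 counts in replicates A and B were all on the single-exon transcript of 2726 bases.

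In the gamma cluster the C-type member PCDHGC5 fell in both lines. It had 20.3, 24.4 and 23.7 CPM in Empty cells, 11.9, 6.44 and 5.19 in NF-YAl cells and 8.11, 13.0 and 10.3 in NF-YAs cells, and no NF-YA library reached the lowest Empty library. In NF-YAl, PCDHGC5 fell by 1.55 in log2 units (SE 0.26, adjusted p = 0.00081) and in NF-YAs by 1.12 (SE 0.26, adjusted p = 0.0051). The call in NF-YAs did not hold without any single Empty library, without NF-YAs replicate A or without NF-YAs replicate C, at adjusted p between 0.012 and 0.030. In NF-YAl it held without each Empty or NF-YAl library in turn, with adjusted p up to 0.0059. PCDHGC5 took 8.93% ± 1.09 of the gamma counts in Empty cells, 3.17% ± 1.76 in NF-YAl cells and 4.59% ± 0.695 in NF-YAs cells.

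The other gamma C-type members were not called. PCDHGC4 had 3.19, 3.54 and 3.03 CPM in Empty cells, 3.18, 4.09 and 3.30 in NF-YAl cells and 2.80, 3.09 and 3.13 in NF-YAs cells. PCDHGC3 had 5.24, 4.37 and 4.01 CPM in Empty cells, 4.35, 7.07 and 12.8 in NF-YAl cells and 3.23, 4.22 and 4.52 in NF-YAs cells, so NF-YAl replicate D stood apart. Of its 311 counts in that library, 192 were on a transcript of 2324 bases to which RSEM gave 0 counts in the other 8 libraries. The nearest annotated transcript by length, of 2346 bases, consists of a short first exon and the constant exons. PCDHGC3 was called higher in NF-YAl against Empty without NF-YAl replicate A (log2 fold change 1.13, adjusted p = 0.0031), when replicate D weighs more.

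**Figure D3:**
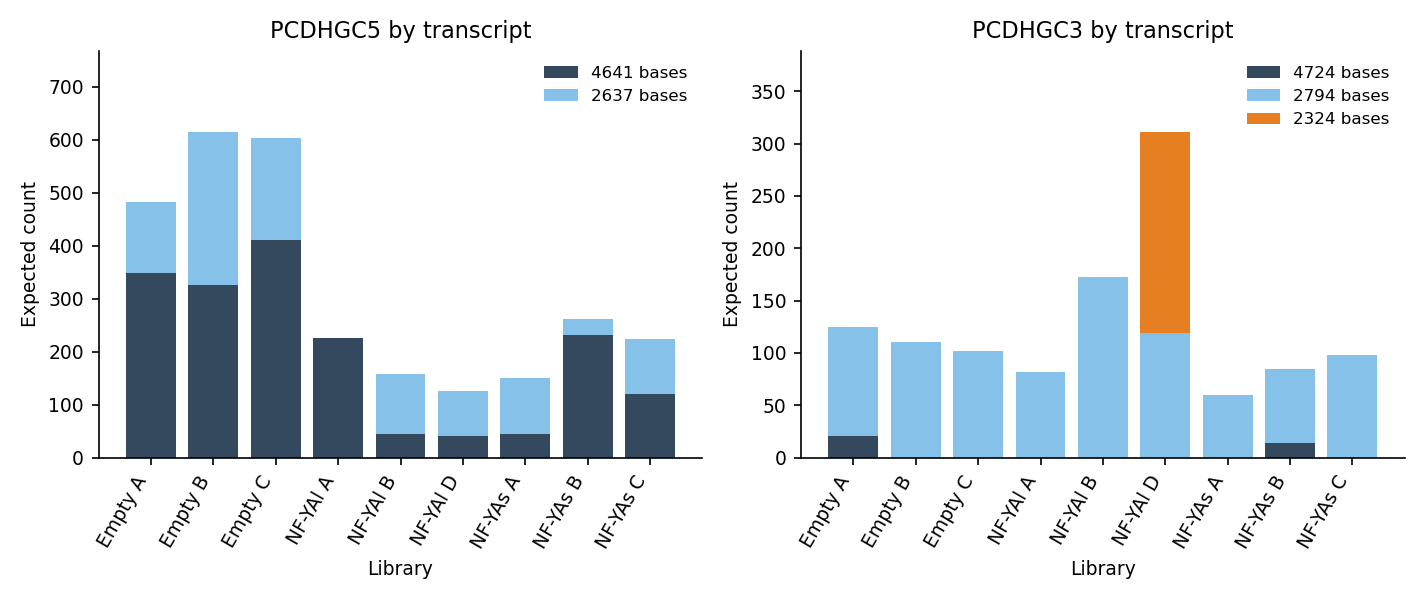
Expected counts of PCDHGC5 (left) and PCDHGC3 (right) in each library, stacked by transcript, with transcript lengths in bases. The PCDHGC5 total is lower in all 6 NF-YA libraries than in the 3 Empty libraries, and the excess of PCDHGC3 in NF-YAl D lies on the transcript of 2324 bases.

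The division of PCDHGC5 counts between its transcripts of 4641 and 2637 bases varied within groups. The longer transcript took 349, 325 and 411 counts in Empty cells, 225, 45.42 and 41.64 in NF-YAl cells and 44.27, 232 and 120 in NF-YAs cells. It was below every Empty library in all NF-YA libraries, in counts and in CPM. The shorter took 134, 289.5 and 192 in Empty cells, 0.12, 112 and 84.73 in NF-YAl cells and 106, 28.98 and 103 in NF-YAs cells. Scaled to CPM, the shorter transcript overlapped between NF-YAs replicate A (5.73) and Empty replicate A (5.62). No window of 50 bases of the PCDHGC5 variable exon was found in another member. That does not show how RSEM shared reads of the gamma constant exons.

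PCDHGA3, with a low level, had 1.31, 1.21 and 1.18 CPM in Empty cells, 0.728, 0.790 and 0.669 in NF-YAl cells and 0.572, 0.484 and 0.366 in NF-YAs cells. All NF-YA libraries were below Empty. It fell by 1.35 in log2 units in NF-YAs (SE 0.30, adjusted p = 0.0039), and the log2 fold change in NF-YAl was -0.77 (SE 0.28, adjusted p = 0.051). With DESeq2 the NF-YAs value was not called (adjusted p = 0.011), nor was it without each Empty library or without NF-YAs replicate B or C. The remaining 21 gamma members were not called against Empty in either line. The most expressed of them, PCDHGB2, had 53.7, 68.2 and 53.6 CPM in Empty cells, 46.4, 66.0 and 37.1 in NF-YAl cells and 41.4, 51.0 and 49.9 in NF-YAs cells. PCDHGB5 had 30.6, 50.5 and 28.9 CPM in Empty cells, 43.0, 63.3 and 48.1 in NF-YAl cells and 28.7, 35.4 and 31.1 in NF-YAs cells.

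Summed over the gamma cluster, CPM were 257 ± 31.6 in Empty cells, 259 ± 54.6 in NF-YAl cells and 226 ± 18.8 in NF-YAs cells (SD, n = 3), with overlapping libraries. In expected counts they were 5844, 7365 and 5915 in Empty cells, 4337, 7876 and 5483 in NF-YAl cells and 3882, 4947 and 4823 in NF-YAs cells. The 3 C-type members summed to 30.6 ± 1.83, 19.4 ± 1.84 and 17.5 ± 3.09 CPM, and the gamma members without PCDHGC5 to 234 ± 30.6, 251 ± 55.8 and 215 ± 16.4. Among these C-type members only PCDHGC5 lay apart from Empty.

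In the beta cluster, log2 fold changes of the 18 tested members lay between -0.62 and 1.33 in NF-YAl and between -0.72 and 0.68 in NF-YAs. PCDHB2, which took 27.6% ± 2.31 of the beta counts for Empty, had 32.0, 40.0 and 35.7 CPM in Empty cells, 57.1, 48.9 and 34.4 in NF-YAl cells and 35.1, 42.8 and 40.1 in NF-YAs cells. PCDHB9 had 21.5, 18.8 and 21.1 CPM in Empty cells, 26.8, 23.6 and 21.2 in NF-YAl cells and 19.0, 21.8 and 22.4 in NF-YAs cells. Neither was called. PCDHB14 had 9.76, 13.2 and 12.4 CPM in Empty cells, 13.2, 12.7 and 11.7 in NF-YAl cells and 14.1, 13.4 and 14.5 in NF-YAs cells. PCDHB13, named after its values had been seen, was the beta member with an adjusted p under 0.01, in NF-YAs, but under the fold limit (log2 fold change 0.68, SE 0.17, adjusted p = 0.0084). The beta sum was 130 ± 5.59 CPM in Empty cells, 157 ± 31.9 in NF-YAl cells and 140 ± 8.13 in NF-YAs cells, and 3060, 3431 and 3190, then 3492, 4021 and 2986, and then 2473, 2995 and 2995 expected counts in these groups.

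Comparing the splice forms directly, no member was called in NF-YAl against NF-YAs by edgeR, where 1.74% of all genes were called higher and 2.86% lower. DESeq2 also called 0, and 12 of 56 members had an unadjusted p under 0.05, where 36.5% of all genes did. Libraries of 10 members did not overlap and were higher in NF-YAl, and those of 2 were lower, where 18.6% and 20.9% of all genes did so. The largest value was that of PCDHGB1, named after its values had been seen, with 0.786, 0.852 and 1.07 CPM in Empty cells, 1.02, 1.58 and 0.822 in NF-YAl cells and 0.444, 0.496 and 0.293 in NF-YAs cells (log2 fold change 1.51, SE 0.38, adjusted p = 0.014). Without NF-YAl replicate D, PCDHGB1 (1.71, adjusted p = 0.0067) and PCDHB5 (1.42, adjusted p = 0.0037) were called higher in NF-YAl, and without NF-YAl replicate A it was PCDHGC3 (1.31, adjusted p = 0.0023). For the alpha members that rose against Empty, the differences between the forms were 1.02 for PCDHA1, 0.21 for PCDHA2, 0.65 for PCDHA3, 0.41 for PCDHA4 and 0.21 for PCDHA5, with adjusted p from 0.051 to 0.58.

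Genes beside the clusters on chromosome 5 were also counted. Of 12 genes before the alpha cluster none was called in any comparison by edgeR, with 9, 6 and 3 at an unadjusted p under 0.05 for NF-YAl and then NF-YAs against Empty and for the direct comparison, beside 42.2%, 45.0% and 36.5% of all genes. DESeq2 gave the same 0. Their median log2 fold change was -0.40 in NF-YAl and -0.17 in NF-YAs. Between the beta and gamma clusters lie TAF7, a subunit of the general transcription factor TFIID, and the mitochondrial ornithine carrier SLC25A2. TAF7 had 123, 147 and 134 CPM in Empty cells, 76.2, 102 and 115 in NF-YAl cells and 62.6, 64.3 and 58.1 in NF-YAs cells. TAF7 fell by 1.13 in log2 units in NF-YAs (SE 0.14, adjusted p = 7.3e-05), and its log2 fold change in NF-YAl was -0.46 (adjusted p = 0.022). SLC25A2 had 1.3001, 0.914 and 0.708 CPM in Empty cells, 1.80, 1.15 and 1.07 in NF-YAl cells and 0.377, 0.547 and 0.323 in NF-YAs cells.

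After the gamma cluster, 1 of 12 genes was called lower in NF-YAl and 2 in NF-YAs, where 3.50% and 3.90% of all genes were. None was called higher, where 4.76% and 5.44% of all genes were. The list medians were -0.42 and -0.27. In NF-YAl against Empty, 10 of the 12 had an unadjusted p under 0.05, where 42.2% of all genes did. With no fold limit, 7 of the 12 had an adjusted p under 0.01, against 3346 of all 17108 genes. The non-clustered protocadherin PCDH1, which lies there, had 16.4, 17.0 and 16.1 CPM in Empty cells, 7.48, 3.11 and 2.75 in NF-YAl cells and 2.48, 1.74 and 2.35 in NF-YAs cells. It fell by 1.91 (SE 0.30, adjusted p = 0.00048) and 2.91 (SE 0.32, adjusted p = 3.6e-05) in log2 units. RELL2 fell by 1.11 in NF-YAs (SE 0.19, adjusted p = 0.00077), with a log2 fold change of -0.84 in NF-YAl.

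Of 22 tested non-clustered protocadherins and large cadherins, 5 were called higher and 1 lower in NF-YAl, where 4.76% and 3.50% of all genes were. In NF-YAs 3 were called higher and 1 lower, where 5.44% and 3.90% of all genes were. The lower gene in both lines was PCDH1, counted above as well. The list medians were 0.28 and 0.30. The large cadherin DCHS2 had 0, 0.119 and 0.0787 CPM in Empty cells, 1.96, 3.27 and 1.77 in NF-YAl cells and 12.3, 14.9 and 15.2 in NF-YAs cells, and was called higher in both (adjusted p = 1.6e-05 and 4.1e-07). PCDH15, known from the tip links of sensory hair cells, had 2.47, 3.42 and 2.44 CPM in Empty cells, 2.71, 3.64 and 2.51 in NF-YAl cells and 20.1, 15.2 and 22.5 in NF-YAs cells. PCDH15 rose in NF-YAs (log2 fold change 2.79, SE 0.21, adjusted p = 2.7e-06), and its log2 fold change in NF-YAl was 0.09 (adjusted p = 0.80). PCDH11X had 0.149, 0.273 and 0.103 CPM in Empty cells, 4.11, 1.58 and 0.792 in NF-YAl cells and 1.55, 0.586 and 0.867 in NF-YAs cells, and was called higher in NF-YAl (adjusted p = 0.0019). The call of PCDH11X in NF-YAl was lost without Empty replicate A (adjusted p = 0.011) or C (adjusted p = 0.013). In NF-YAs, PCDH11X had a log2 fold change of 2.38 and was not called (adjusted p = 0.021), but was called by DESeq2, with only the 2 groups compared and with the replicate block, at adjusted p between 0.0012 and 0.0024.

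Of 21 genes of promoter choice and chromatin at these clusters, none was called in NF-YAl against Empty by edgeR, with 7 at an unadjusted p under 0.05 (42.2% of all genes) and 0 called by DESeq2. In NF-YAs 1 was called lower, where 3.90% of all genes were. The list medians were 0.07 and 0.12. CTCF had 74.4, 78.2 and 70.9 CPM in Empty cells, 63.8, 69.8 and 81.5 in NF-YAl cells and 77.0, 75.4 and 71.4 in NF-YAs cells, with overlapping groups. The called gene was SMCHD1, a chromatin protein known to repress clustered protocadherins, with 253, 238 and 248 CPM in Empty cells, 157, 147 and 173 in NF-YAl cells and 128, 118 and 109 in NF-YAs cells. All 3 groups lay apart. SMCHD1 fell by 1.06 in log2 units in NF-YAs (SE 0.10, adjusted p = 9.6e-06), and its log2 fold change in NF-YAl was -0.63 (SE 0.10, adjusted p = 0.00040). Of 21 signalling and processing partners, 2 were called higher in NF-YAl and 1 in NF-YAs, where 4.76% and 5.44% of all genes were. The list medians were 0.01 and -0.06. NLGN1, a synaptic adhesion protein, had 2.35, 2.46 and 2.72 CPM in Empty cells, 9.97, 11.5 and 6.86 in NF-YAl cells and 5.49, 4.03 and 5.76 in NF-YAs cells, and was called in both (log2 fold changes 1.91 and 1.02, adjusted p = 6.1e-05 and 0.0041). The call of NLGN1 in NF-YAs was lost without any single Empty library, without NF-YAs replicate A or without NF-YAs replicate C, at adjusted p between 0.013 and 0.022. CYFIP2, of the WAVE complex, which binds the tails of many protocadherins, rose by 1.301 in NF-YAl (SE 0.13, adjusted p = 2.5e-05), with a log2 fold change of 0.84 in NF-YAs.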

How the data were processed

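RNA-seq of PC3 MTSs gave 3 libraries per line. The authors aligned reads with Bowtie2 within RSEM to RefSeq transcripts of GRCh37 (hg19) and deposited, per gene and transcript, the expected count (an estimate that shares ambiguous reads, not normalized), TPM (scaled to the same total per library) and, for transcripts, the percent of the gene's TPM. Strand use in alignment is not given in the sources used here. Deposited FPKM were not used. Deposited effective lengths were read, not analysed.

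Gene expected counts were rounded, filtered with filterByExpr, scaled by TMM and tested with edgeR 4.0.16 (R 4.3.3) with all 9 libraries in 1 quasi-likelihood fit, Benjamini-Hochberg adjustment over 17108 genes, and a call at adjusted p under 0.01 and log2 fold change over 1, the study's thresholds. SE is the log2 fold change over the square root of F. The scripts were tested on simulated data. Cluster sums used unrounded counts and TMM library sizes. Transcript lengths are the deposited ones. GENCODE on GRCh37 gave exons, and RefSeq promoters are on GRCh38.p14, from which no coordinate was moved to GRCh37. The members and lists were chosen with earlier results of these data known. Named genes were the C-type members, the 3 highest members by CPM per cluster, called members, up to 4 called genes per other list, and CTCF, SMCHD1 and NFYA. Alternatives were DESeq2 1.42.0, RLE scaling, other filters and thresholds, fits of 2 groups at a time, a replicate block, and leaving out each library. The labels give each library its line and a letter. The paper describes 3 independent experiments and does not say how the letters map to them. Each stable line was made once in that description, so p-values cover the spread between cultures of 1 line. Replicates differed by more than counting error, and unevenly. The chi-square per gene against counting error was 92.7 and 75.3 for NF-YAl D with A and B, and 30.9 for A with B. For Empty A with B and C it was 50.6 and 50.7, and for B with C 11.6. The NF-YAs pairs had 6.39 to 11.0.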

Additional observations from a re-analysis of the deposited data

Results flagged for a closer look

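No member differed between the splice forms by the test. Of the other genes named here, 3 did in NF-YAl against NF-YAs by edgeR. PCDH15 was lower in NF-YAl by a log2 fold change of -2.70 (SE 0.21, adjusted p = 1.6e-05). DCHS2 was lower by -2.59 (SE 0.27, adjusted p = 6.3e-05). SLC25A2, between the beta and gamma clusters, was higher by 1.66 (SE 0.38, adjusted p = 0.0087), from expected counts of 34, 28 and 26 in NF-YAl cells and 7, 11 and 7 in NF-YAs cells. The call of SLC25A2 was lost without any single library of either form other than NF-YAl replicate D, with adjusted p over all its alternatives between 0.00536 and 0.049.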

How the results depend on the processing

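PCDHA2, PCDHA3 and PCDHA5 in both lines, and PCDHA4 and PCDHGC5 in NF-YAl, were called under every alternative run. Members called lower in NF-YAs numbered 2, against 1 with DESeq2, 1 with at least 10 counts in every library, and 0 to 1 when a library was left out. Members called higher in NF-YAl against NF-YAs numbered 0, against 1 with the replicate block (PCDHB5), 3 at an adjusted p under 0.05, and 0 to 2 when a library was left out. PCDHB1, outside the main test, was called higher in NF-YAl by DESeq2 and with no filter. Same-letter libraries of different groups had residual correlations between -0.07 and 0.25 (mean 0.086). Those with different letters had -0.22 to 0.16 (mean -0.030). The letters were not taken to pair samples in the main fit, and these values do not settle whether they do. With the replicate block PCDHAC1 in NF-YAl against NF-YAs was 0.028 instead of -0.057, and counts of higher genes in that comparison were 4 for non-clustered protocadherins, 1 for downstream neighbours, 1 for partners and 0 between beta and gamma. The log2 ratio of cluster sums moved most with TPM, whose sum over members was 301 in NF-YAl replicate D and 153 to 216 in the other libraries. With TPM it was 0.34 for alpha, 0.56 for beta and 0.37 for gamma in NF-YAl against Empty, instead of 0.00, 0.28 and 0.01. In NF-YAs it was 0.18, 0.27 and 0.036, instead of -0.06, 0.11 and -0.19. With total counts the alpha ratio in NF-YAl was 0.15 and the beta ratio in NF-YAs 0.22. The cause was not tested. For the other lists, alternatives were chosen after the data were seen. Non-clustered protocadherins called higher in NF-YAs numbered 5 with DESeq2, with only the 2 groups compared, with the block and at 0.05, instead of 3. In NF-YAl against Empty they numbered 3 instead of 5 with at least 10 counts. In NF-YAl against NF-YAs those called lower numbered 1 instead of 2 with that filter, and those called higher 1 instead of 0 with DESeq2, no filter or 0.05, and 0 to 4 without a library. The gene called between beta and gamma in that comparison was lost (0) with at least 10 counts and with only the 2 groups, and 0 to 1 were called without a library. At 0.05, 2 were called lower there in NF-YAs and 1 upstream neighbour in NF-YAl. Leaving out a library gave 1 to 2 downstream neighbours lower in NF-YAl, 0 to 1 higher in NF-YAl against NF-YAs, 1 to 2 chromatin genes lower in NF-YAs, and 0 to 1 partners higher in NF-YAs and in NF-YAl against NF-YAs. Uncalled values near 0 changed sign when a library was left out. PCDHA12 ran from -0.068 to 0.18 in NF-YAl, from -0.13 to 0.036 in NF-YAs and from -0.016 to 0.23 between the forms. CTCF ran from -0.16 to 0.023, from -0.034 to 0.038 (-0.00102 with at least 10 counts) and from -0.16 to 0.020. In NF-YAl PCDHB14 ran from -0.018 to 0.18, PCDHGC4 from -0.0063 to 0.18 and PCDH15 from -0.095 to 0.27. In NF-YAs PCDHB9 ran from -0.016 to 0.11 and PCDHGB5 from -0.36 to 0.093. Between the forms PCDHAC1 ran from -0.17 to 0.051 and PCDHGB2 from -0.19 to 0.25. Depth limits members of low counts, such as PCDHA1, PCDHGA3, PCDHGB1 and PCDHB1, which had under 60 counts in every library.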
